A study of Mus musculus with 14 samples.

Results

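A set of 47 genes of DNA replication and deoxynucleotide supply was followed in mouse bone marrow cells labelled control or Dpy30 KO. They came from a fixed list of names, chosen with earlier results of these data known. The list holds subunits of the MCM helicase and of the origin recognition complex, licensing and helicase-activating factors, and the sliding clamp and its loader. It also holds the replicative polymerases, Okazaki fragment and single-strand binding proteins, enzymes that make deoxynucleotides, and chromatin assembly factor 1. All 47 were found by symbol among the 38926 entries of the LSK and MyePro libraries, and all 47 matched 1 Ensembl ID each among the 39179 of the LT-HSC libraries. DPY30 is a core subunit of the SET1 and MLL enzyme complexes that place methyl marks on histone H3 lysine 4.

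Of the 14 samples in the series, the 8 RNA-seq libraries were used. Control cells had the genotype Mx1-Cre; Dpy30F/+ and KO cells Mx1-Cre; Dpy30F/-. Both came from mixed chimeras, in which CD45.2+ donor marrow and C57Bl/6J CD45.1+ competitor marrow were given together to irradiated CD45.1+ mice, and every recipient, controls included, then received 4 injections of pIpC at 7.5 µg/g from week 7 after the transplant. Mx1-Cre answers to interferon, which pIpC induces, and is not limited to blood cells. Marrow was taken 2 weeks after the last injection and depleted of mature lineages before sorting. LSK cells, the fraction with stem cells and multipotent progenitors, and MyePro cells gave 1 library per genotype from pools of 2 to 3 mice. Long-term stem cells (LT-HSC) gave 2 libraries per genotype, 1 from each of 2 transplants, from pools of 7 to 9 mice, and their RNA was amplified first. No sorting gate for MyePro is stated in the labels, and the ages of the recipients are not given there either.

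Chromosome replication begins with licensing: the origin recognition complex, with CDC6 and CDT1, loads the MCM helicase onto DNA, and geminin holds CDT1 in check so that each origin is used only once per cycle. CDC45 and the GINS complex then turn the loaded MCM ring into an active helicase, and polymerase alpha with primase, polymerases delta and epsilon, the PCNA clamp and its RFC loader copy the opened strands. Many of these genes are transcribed in waves at the G1 to S boundary under E2F transcription factors, and fast-dividing progenitors hold more of their RNA than quiescent stem cells.

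Because E2F control is the textbook feature these genes share, the promoter windows were searched for it before the values are given. Each window holds 300 bases, from 250 before to 50 after the first transcript start listed for the gene (RefSeq, GRCm38.p6), and 39 of the 47 genes had one. The motifs searched, on both strands and with overlapping matches counted, were TTTCCCGC, TTTGGCGC, TTTCGCGC and TTTGCCGC for E2F, and CCAAT. An E2F match lay in 13 of the 39 windows (33.3%), against 2.32% of all 27025 windows, and CCAAT in 23 (59%) against 37.9%. The matches are a description of the letters and not of binding. The 5 windows printed here are those of Orc1, Cdc6, Mcm10, Rrm2 and Mcm6. The first 4 are among the 8 genes at least 2-fold lower in KO than in control MyePro cells, described next. They are not the 4 lowest, as Orc2, Orc5 and Chaf1a had lower ratios than Rrm2. Mcm6 had the most E2F matches. Capitals mark E2F matches. Orc1 is at chr4:108579204-108579503 (plus strand), Cdc6 at chr11:98907901-98908200 (plus strand), Mcm10 at chr2:5012742-5013041 (minus strand), Rrm2 at chr12:24708004-24708303 (plus strand) and Mcm6 at chr1:128359656-128359955 (minus strand).
Orc1: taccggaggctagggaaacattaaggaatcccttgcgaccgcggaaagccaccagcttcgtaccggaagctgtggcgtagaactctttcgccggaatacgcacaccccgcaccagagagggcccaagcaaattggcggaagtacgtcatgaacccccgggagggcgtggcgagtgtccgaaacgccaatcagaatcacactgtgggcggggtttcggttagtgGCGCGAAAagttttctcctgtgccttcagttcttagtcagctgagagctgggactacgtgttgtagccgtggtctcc
Cdc6: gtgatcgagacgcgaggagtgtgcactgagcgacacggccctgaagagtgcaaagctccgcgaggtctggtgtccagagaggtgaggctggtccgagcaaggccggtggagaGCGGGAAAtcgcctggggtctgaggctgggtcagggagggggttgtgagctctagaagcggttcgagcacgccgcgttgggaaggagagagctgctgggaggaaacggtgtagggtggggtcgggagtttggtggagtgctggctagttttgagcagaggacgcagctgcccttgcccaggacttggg
Mcm10: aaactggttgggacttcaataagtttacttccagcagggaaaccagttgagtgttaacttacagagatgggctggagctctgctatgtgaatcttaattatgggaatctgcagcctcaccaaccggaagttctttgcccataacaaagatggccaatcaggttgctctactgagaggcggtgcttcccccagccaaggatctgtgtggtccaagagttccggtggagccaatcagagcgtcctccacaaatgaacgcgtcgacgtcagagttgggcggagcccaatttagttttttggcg
Rrm2: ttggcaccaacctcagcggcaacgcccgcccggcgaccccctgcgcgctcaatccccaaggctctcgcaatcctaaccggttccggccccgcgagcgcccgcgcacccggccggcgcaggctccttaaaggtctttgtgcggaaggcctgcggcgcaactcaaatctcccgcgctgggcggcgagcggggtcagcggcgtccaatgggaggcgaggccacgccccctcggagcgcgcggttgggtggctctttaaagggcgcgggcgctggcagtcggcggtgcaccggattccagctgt
Mcm6: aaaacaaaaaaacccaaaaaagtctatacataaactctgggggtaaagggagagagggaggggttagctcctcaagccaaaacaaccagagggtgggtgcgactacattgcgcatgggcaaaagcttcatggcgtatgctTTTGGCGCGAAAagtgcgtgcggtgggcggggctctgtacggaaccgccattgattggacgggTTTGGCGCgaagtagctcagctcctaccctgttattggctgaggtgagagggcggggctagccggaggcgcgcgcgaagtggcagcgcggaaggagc
In Orc1 the match began 27 bases before the start (position -27) and in Cdc6 at -138, while Mcm6 had matches at -110, -106 and -47, the first pair overlapping. The Mcm10 and Rrm2 windows held none of the 4 E2F strings. For Orc1 and Cdc6 the listed start lies inside the RefSeq gene span, so another start upstream was not covered.

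The LSK and MyePro libraries held 6130320 (KO LSK) to 20820762 (control MyePro) gene counts, and the LT-HSC libraries 38060087 to 85499797. Dpy30 itself had a CPM (its share of the library's gene counts, scaled to 1000000 with TMM factors) of 78 in control and 42.3 in KO LSK, and of 114 and 51.8 in MyePro. In LT-HSC the controls of transplants 1 and 2 had 12.9 and 8.43 CPM of it and the libraries labelled KO 14.1 and 4.67 CPM. At this scaling the library labelled KO from transplant 1 went against its label (log2 fold change over both transplants -0.19 ± 0.605 SE, edgeR adjusted p = 0.999). The TMM factor of that library was 0.58, against 1.2, 1.14 and 1.26 in the other LT-HSC libraries. Its CPM of Dpy30 and of all other genes rest on that factor. As a share of gene counts without TMM factors, Dpy30 was lower in both libraries labelled KO than in both controls. The labels do not say which part of Dpy30 is removed, so its level checks the genotype only in part. The LSK and MyePro labels of the controls held by these markers. Hlf, a stem cell gene, stood at 194 CPM in control LSK and 13.6 CPM in control MyePro. Mpo, a granule enzyme of myeloid progenitors, stood at 2027 and 6408 CPM. In LT-HSC none of the 9 stem cell markers was at 0, but none was at 0 in LSK or MyePro either. That does not check the LT-HSC label. In KO LSK, Hlf stood at 45.2 CPM.

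In the progenitors, most replication genes stood lower in the KO library than in the control library, slightly in LSK and more in MyePro. The 47 genes summed to 8043 CPM in control LSK and 6741 CPM in KO LSK, 83.8% of control, and to 9259 and 6002 CPM in MyePro, 64.8% of control. With 1 library per group these differences have no replicate check, so no p-values are given, and the 95% intervals beside single genes cover counting error only. In bulk RNA, fewer cells in S phase and less RNA per cell cannot be told apart.

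**Figure D1:**
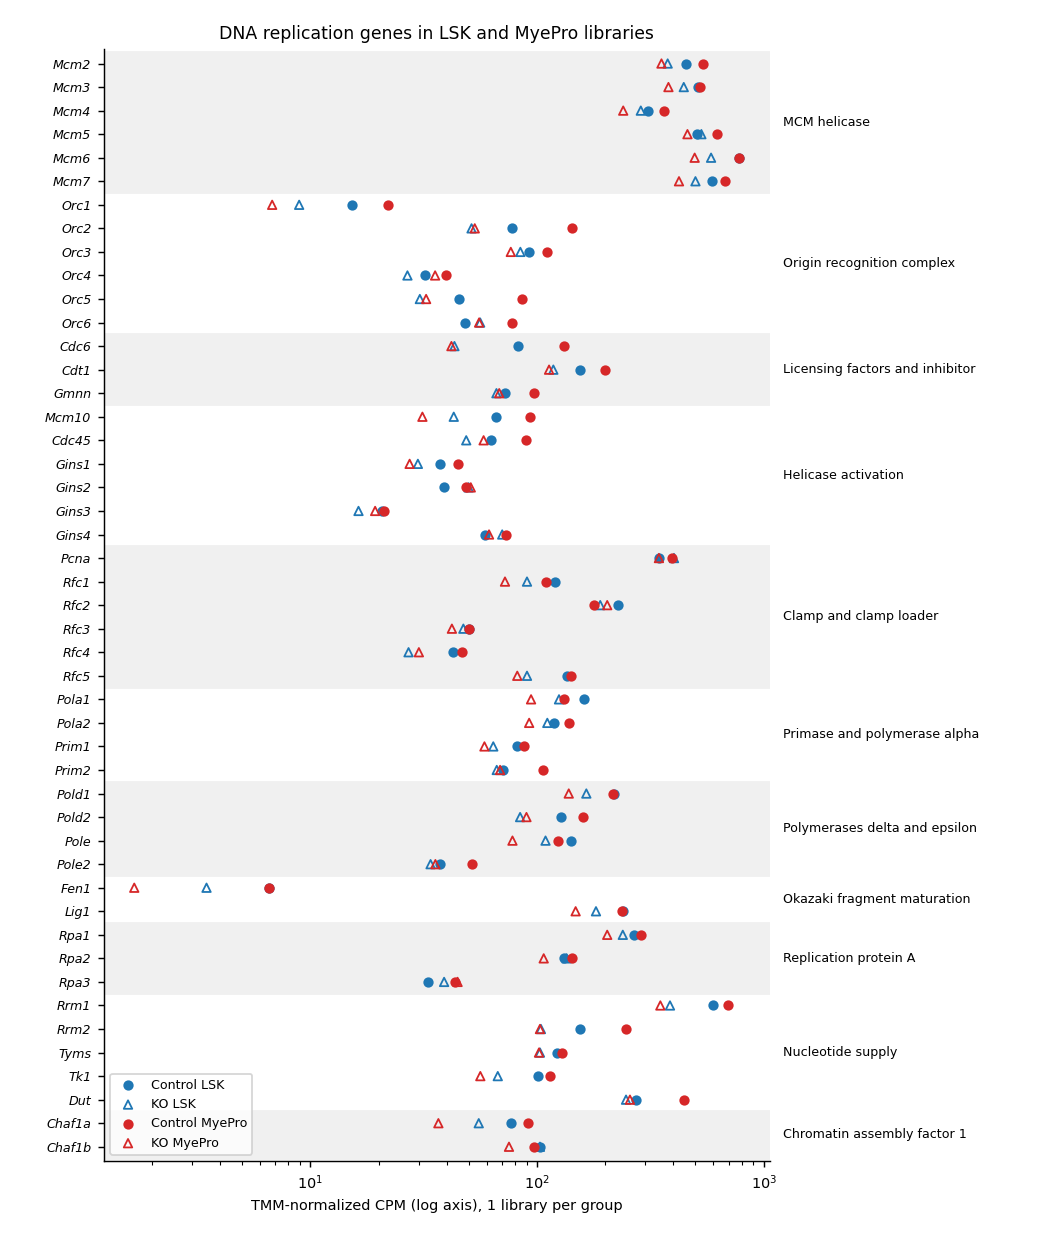
TMM-normalized CPM (log axis) of the 47 genes in the control (filled circles) and KO (open triangles) libraries of LSK (blue) and MyePro (red), 1 point per library, grouped by role. Control MyePro is the highest point for most genes, such as Cdc6 at 132 CPM, and KO MyePro is often the lowest, such as Mcm10 at 31.2 CPM.

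In LSK, log2 ratios of KO over control were below 0 for 39 of 47 genes (83%), against 53.6% of all 10311 genes compared. Their median was -0.32, against -0.04 over all genes. Scaling by library totals, which moved the all-gene median to 0.09, left 33 of the 47 below 0, with the same distance of -0.28 between the medians. None of the 47 passed 2-fold, where 4.98% of all genes were at least 2-fold higher, 5.39% at least 2-fold lower and 10.4% either. The interval lay below 0 for 32 genes, above 0 for 5 and spanned 0 for 10. In MyePro, 43 of the 46 genes compared (93.5%) had a ratio below 0, against 55.3% of all 10244 genes, and the median was -0.61 against -0.08. At least 2-fold lower were 8 genes (17.4%) and at least 2-fold higher none, where 7.99% of all genes were lower, 11.3% higher and 19.3% either. Intervals lay below 0 for 41 genes and above 0 for 1, and 4 spanned 0. How many of all genes had intervals clear of 0 was not counted in either population. These interval counts thus have no background to be read against, and the intervals leave out the choice of scaling. Fen1 was not compared, its mean being under the minimum of 5 CPM. An E2F match lay in 2 of the 8 promoter windows of the genes at least 2-fold lower (Orc1 and Cdc6) and in 11 of the other 31.

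**Figure D2:**
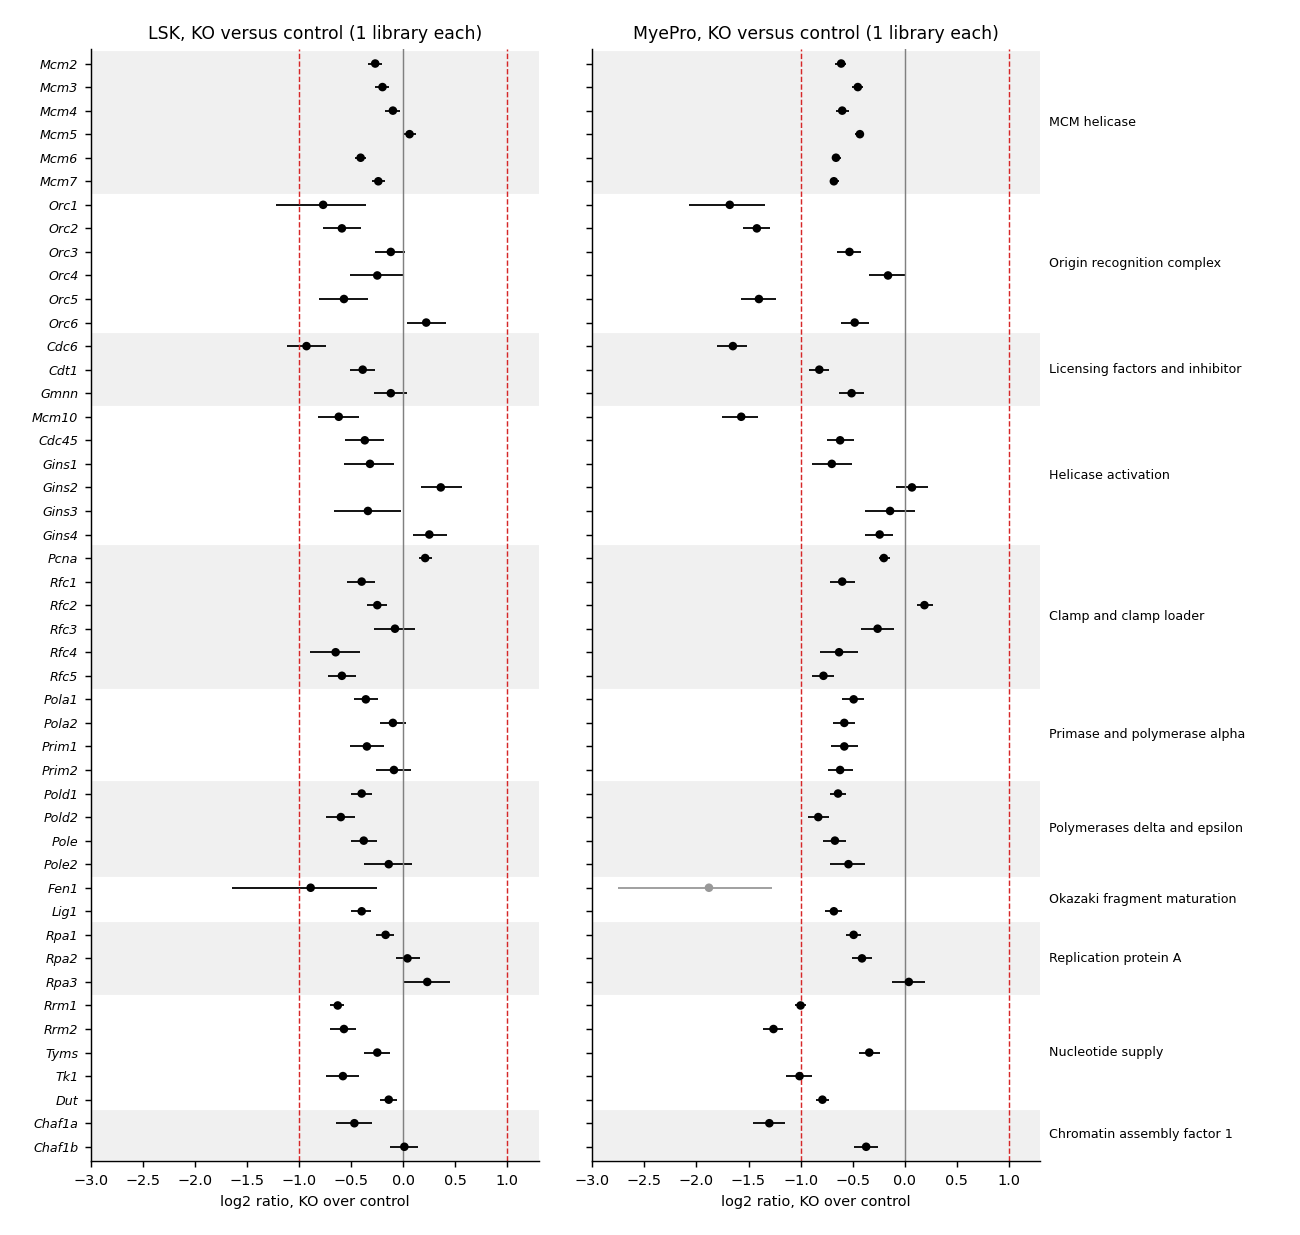
Log2 ratio of KO over control for each gene in LSK (left) and MyePro (right), 1 library per genotype, with 95% intervals of the counting error. Red dashed lines mark 2-fold either way, and grey marks Fen1 in MyePro, under the CPM minimum. No LSK gene passes a dashed line, while 8 MyePro genes lie beyond the lower one, from Orc1 at -1.68 to Tk1 at -1.01.

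Origin recognition was uneven. Orc1 (ENSMUSG00000028587, GRCm38.p6 chromosome 4, 108575705 to 108616030), the subunit whose level cycles and whose ATPase activity drives loading, had 15.3 CPM in control LSK and 8.92 CPM in KO LSK, with 22 and 6.78 CPM in control and KO MyePro. Its log2 ratio was -0.77 (interval -1.22 to -0.36) in LSK and -1.68 (-2.07 to -1.34) in MyePro, the lowest of all 46 in MyePro. These rest on few reads, 59 in KO LSK and 77 in KO MyePro. Orc2 (ENSMUSG00000026037, chromosome 1, 58462771 to 58505113), a core subunit, stood at 77.4 and 51.4 CPM in LSK and 142 and 53.1 CPM in MyePro, a ratio of -1.42 (-1.55 to -1.29) in MyePro. Orc5 (ENSMUSG00000029012, chromosome 5, 22486480 to 22550338), another ATPase-fold subunit, stood at 45.3 and 30.4 CPM and at 85.8 and 32.4 CPM, a ratio of -1.40 (-1.57 to -1.24) in MyePro. For both genes control MyePro was the highest library, and the 2 KO libraries had the lowest values. Orc3 and Orc4 differed less: in MyePro their ratios were -0.53 and -0.16, the latter with an interval that spanned 0. Orc6 stood at 48 and 56.1 CPM in LSK (0.22) and at 77.3 and 55.5 CPM in MyePro (-0.48), so that its direction was opposite in the 2 populations. Of the complex, Orc1, Orc2 and Orc5 passed 2-fold in MyePro and Orc3, Orc4 and Orc6 did not.

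Among the licensing factors, Cdc6 (ENSMUSG00000017499, chromosome 11, 98907709 to 98923942), which brings MCM to the origin complex, had the lowest ratio in LSK. It had 82.3 CPM in the control and 43.2 CPM in the KO library of LSK (-0.93, -1.12 to -0.74) and at 132 and 41.9 CPM in MyePro (-1.65, -1.80 to -1.51). Cdt1, its loading partner, stood at 154 and 118 CPM in LSK (-0.39) and 200 and 113 CPM in MyePro (-0.82). Gmnn, the geminin inhibitor of CDT1, differed least of the 3, at 71.9 and 66.2 CPM in LSK and 96.9 and 68.1 CPM in MyePro (-0.51). The log2 ratio of Cdc6 was lower than that of Gmnn in both populations.

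The 6 MCM helicase subunits moved within a narrow band. Mcm2, Mcm3, Mcm4, Mcm5, Mcm6 and Mcm7 form 1 ring, and their MyePro ratios lay between -0.68 (Mcm7, 676 and 423 CPM) and -0.43 (Mcm5, 623 and 461 CPM), none past 2-fold. In LSK they lay between -0.41 (Mcm6, 778 and 586 CPM) and 0.06 (Mcm5, 509 and 531 CPM). As a ring, the 6 summed to 3153 and 2727 CPM in LSK and 3506 and 2354 CPM in MyePro.

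Helicase activation split between Mcm10 and GINS. Mcm10 (ENSMUSG00000026669, chromosome 2, 4990724 to 5012791), which stabilises the active helicase, stood at 66 and 42.9 CPM in LSK (-0.62) and at 93.1 and 31.2 CPM in MyePro (-1.57, -1.75 to -1.41). Cdc45, which completes the CMG helicase, had ratios of -0.37 and -0.62. Of the GINS subunits, Gins1 was at -0.32 and -0.70, but Gins2 stood higher in the KO library of both, at 38.7 and 49.9 CPM in LSK (0.36, 0.17 to 0.56) and 48.6 and 51 CPM in MyePro (0.07, spanning 0). Gins3 was at -0.34 and -0.14. Gins4 stood at 58.9 and 70.2 CPM in LSK (0.25) and 72.8 and 61.4 CPM in MyePro (-0.24).

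None of the fork genes compared passed 2-fold in either population. Pcna, the sliding clamp, stood at 347 and 402 CPM in LSK (0.21, 0.15 to 0.28) and at 395 and 345 CPM in MyePro (-0.20, -0.25 to -0.14). Of the clamp loader, Rfc4 stood at 42.7 and 27.1 CPM in LSK (-0.65) and Rfc5 at 136 and 90.3 CPM (-0.59), and in MyePro Rfc5 had the lowest loader ratio (-0.78). Rfc1 was at -0.40 and -0.60 and Rfc3 at -0.08 and -0.26. Rfc2 was the only gene with an interval above 0 in MyePro, with 179 CPM in the control library and 204 CPM in the KO library (0.19, 0.12 to 0.27), with -0.25 in LSK. Polymerase alpha with primase had MyePro ratios from -0.62 (Prim2) to -0.49 (Pola1), and LSK ratios from -0.36 (Pola1) to -0.09 (Prim2). Polymerases delta and epsilon (Pold1, Pold2, Pole, Pole2) lay between -0.83 (Pold2, 159 and 89.8 CPM) and -0.54 (Pole2) in MyePro. Lig1, which joins Okazaki fragments, stood at 240 and 182 CPM in LSK (-0.40) and 238 and 148 CPM in MyePro (-0.68). Fen1, the flap nuclease, was listed at 6.59 and 3.48 CPM in LSK (-0.89) and 6.57 and 1.67 CPM in MyePro, from 97, 23, 131 and 19 reads. Fen1 overlaps Tmem258 in the annotation. Reads that fell on more than 1 gene were set aside as ambiguous (0.771% to 2.76% of a file) and counted for neither gene. How many of them came from Fen1 is not known. Replication protein A, which coats single strands, was split as well: in LSK Rpa1 was at -0.17, Rpa2 at 0.04 and Rpa3 at 0.23 (33.1 and 38.9 CPM), and in MyePro at -0.49, -0.41 and 0.04.

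Nucleotide supply stood lower as a group. Rrm1 and Rrm2 are the subunits of ribonucleotide reductase, which makes deoxynucleotides. Rrm1 stood at 599 and 386 CPM in LSK (-0.63, -0.70 to -0.57) and at 699 and 350 CPM in MyePro (50% of control, interval -1.05 to -0.95 in log2), just short of 2-fold. Rrm2 (ENSMUSG00000020649, chromosome 12, 24708254 to 24714146) stood at 154 and 104 CPM in LSK (-0.57) and at 248 and 103 CPM in MyePro (-1.26, -1.36 to -1.17). Tk1 (ENSMUSG00000025574, chromosome 11, 117815519 to 117826087), the salvage thymidine kinase, stood at 101 and 67.1 CPM in LSK (-0.58) and at 114 and 56.2 CPM in MyePro (-1.01, -1.14 to -0.89), just past 2-fold. Tyms, which makes thymidylate, differed less (-0.25 and -0.34), and Dut, which clears dUTP, was at -0.14 in LSK and -0.79 in MyePro, where it stood at 446 and 257 CPM. Chaf1a (ENSMUSG00000002835, chromosome 17, 56040416 to 56068026), the large subunit of the assembly factor that deposits new histones, stood at 76.9 and 55.3 CPM in LSK (-0.47) and at 90.8 and 36.7 CPM in MyePro (-1.30, -1.46 to -1.15). Its partner Chaf1b was at 0.01 and -0.37. Orc1, Tk1 and Chaf1a overlap the protein-coding genes Prpf38a, Afmid and Ubxn6 in the annotation, as 14 of the 47 genes overlap at least 1 protein-coding gene. Orc2 and Orc5 overlap annotated genes of other kinds, and the strand of counting is not given.

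Summed RNA of cell type markers also differed between the control and KO libraries. Erythroid markers (9 genes) summed to 962 CPM in control LSK and 158 CPM in KO LSK, and to 3931 and 532 CPM in MyePro. Megakaryocyte markers (8 genes) summed to 514 and 860 CPM in LSK and to 147 and 1650 CPM in MyePro, with Gp6 at 0 in control MyePro. Myeloid progenitor markers summed to 11044 and 6525 CPM in MyePro, neutrophil markers (6) to 23.7 and 615 CPM and macrophage markers (4) to 38.9 and 289 CPM. In LSK, myeloid progenitor markers summed to 3182 and 2861 CPM, neutrophil markers to 10.7 and 171 CPM and macrophage markers to 77.9 and 184 CPM. The largest part of the myeloid progenitor sum in LSK was Mpo (2027 and 996 CPM). By gene, 6 of the 8 myeloid progenitor markers had a ratio above 0 in LSK (median 0.52). In MyePro 3 of the 8 did (median -0.28). Lymphoid priming markers (4) summed to 341 and 67.9 CPM in LSK and to 95.2 and 21.7 CPM in MyePro, and stem cell markers (9) to 900 and 638 CPM and to 429 and 360 CPM. T and NK markers (6) summed to 199 and 479 CPM in LSK and to 197 and 535 CPM in MyePro, nearly all of it Nkg7. Whether these sums reflect other cells or other RNA levels within the same cells was not tested. Their part in the replication gene ratios was not tested either.

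Other genes of the pathway were taken from 4 lists, to be read against the 5.39% of all genes at least 2-fold lower in LSK and the 7.99% in MyePro. Of other fork and origin factors, none of 29 passed 2-fold in LSK (median -0.35), and 6 of 29 were at least 2-fold lower in MyePro (median -0.68), among them Recql4 at -2.09, Timeless at -1.59, Clspn at -1.15 and Donson at -1.09. Of other deoxynucleotide genes, 2 of 21 were 2-fold lower in LSK, Cad at -1.14 and Dctd at -1.12, and 5 of 21 in MyePro, among them Cad at -1.61, Dctd at -1.52, Ctps at -1.16 and Gart at -1.09. Among E2F, RB and DREAM regulators, none of 19 passed in LSK and 3 of 18 in MyePro, with E2f4 at -1.40, E2f6 at -1.20 and Mybl2 at -1.14. Of the activators, E2f1 was at 0.02 in LSK and 0.11 in MyePro, E2f2 at -0.88 and -0.26 and E2f3 at -0.43 and -0.44. Mitosis genes had medians of -0.69 and -0.85, 4 of 20 and 5 of 20 being at least 2-fold lower, for example Mki67 at -1.67 and -1.49 and Plk1 at -1.70 and -1.87.

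The KO ratios of LSK and MyePro share no library. Over the 46 genes compared in both, they correlated across genes at Pearson's r = 0.77 and Spearman's rho = 0.79, against 0.74 and 0.73 over all 9979 genes compared in both. Genes are not independent replicates and share these libraries. The ratio was lower in MyePro than in LSK for 42 of the 46 members, against 54% of all genes, with a median difference of -0.38 against -0.04. Below 0 in both were 37 members, where 43.6% of all genes were.

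**Figure D3:**
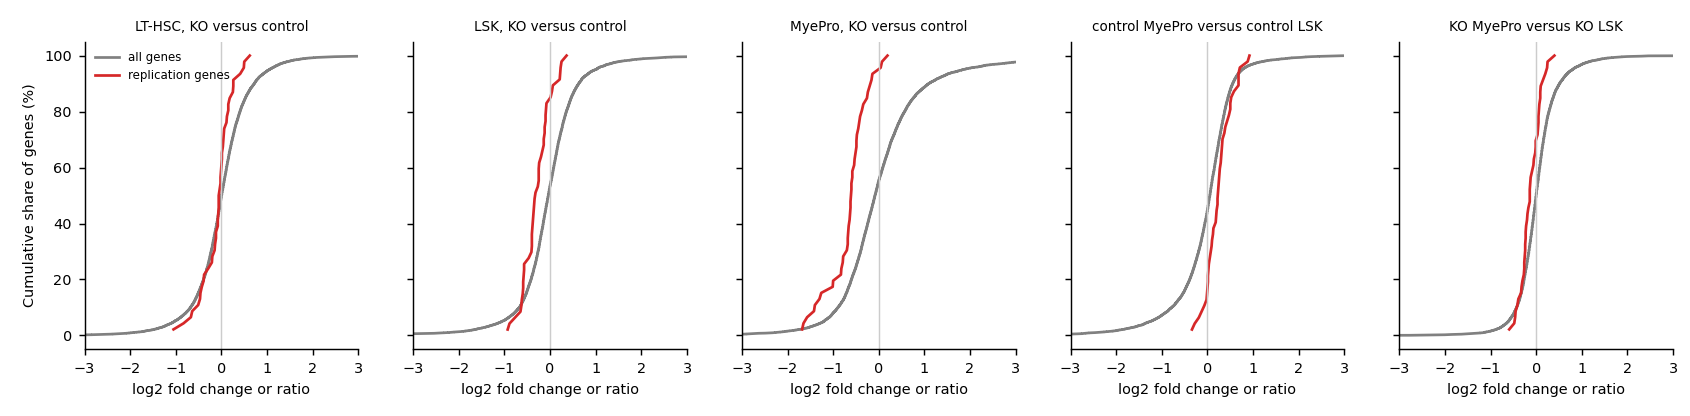
Cumulative share (percent) of log2 fold changes or ratios for all genes (grey) and the replication genes (red) in the 5 comparisons. The red line lies left of the grey in LSK (medians -0.32 and -0.04) and further left in MyePro (-0.61 and -0.08), near it in LT-HSC, right of it for control MyePro over control LSK and slightly left for KO MyePro over KO LSK.

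The control and KO libraries were also compared from LSK to MyePro. Replication genes summed in control MyePro to 115% of control LSK and in KO MyePro to 89% of KO LSK. In control cells 39 of 47 genes were higher in MyePro (median 0.23, all genes 0.05) and 44.9% of all 10059 genes had a ratio below 0. None passed 2-fold, where 3.01% of all genes were at least 2-fold higher, 7.21% lower and 10.2% either. The highest were Orc5 (45.3 to 85.8 CPM, 0.92), Orc2 (77.4 to 142 CPM, 0.88), Dut (272 to 446 CPM, 0.71), Orc6 (48 to 77.3 CPM, 0.68) and Rrm2 (154 to 248 CPM, 0.68), with Cdc6 close behind (82.3 to 132 CPM, 0.68). Lowest were Rfc2 (227 to 179 CPM, -0.34), Pola1 (161 to 132 CPM, -0.28), Pole (141 to 124 CPM, -0.19), Rfc1 (120 to 109 CPM, -0.13) and Chaf1b (103 to 97.4 CPM, -0.07). In KO cells, 32 of the 46 genes compared (69.6%) had a ratio below 0, against 50.1% of all 10360 genes, and the median was -0.14 against 0.00. With library totals 41 of the 46 were below 0, where the all-gene median was -0.13. None passed 2-fold, where 3.15% of all genes were at least 2-fold higher, 1.53% lower and 4.68% either. Chaf1a (55.3 to 36.7 CPM, -0.59), Pole (109 to 77.9 CPM, -0.48), Mcm10 (42.9 to 31.2 CPM, -0.46), Chaf1b (103 to 75.2 CPM, -0.45) and Pola1 (125 to 94.1 CPM, -0.41) were lowest. The highest were Orc4 (26.8 to 35.5 CPM, 0.40), Cdc45 (48.7 to 58.1 CPM, 0.25), Gins3 (16.3 to 19.3 CPM, 0.24), Rpa3 (38.9 to 44.6 CPM, 0.20) and Rfc4 (27.1 to 30.1 CPM, 0.15). Orc5, Orc2 and Cdc6, which were higher in control MyePro than in control LSK, were near level in KO cells (0.09, 0.05 and -0.05). Erythroid markers summed higher in MyePro than in LSK in both genotypes (962 and 3931 CPM in control, 158 and 532 CPM in KO), and their part in these ratios was not tested. These comparisons share libraries with those of KO and control.

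**Figure D4:**
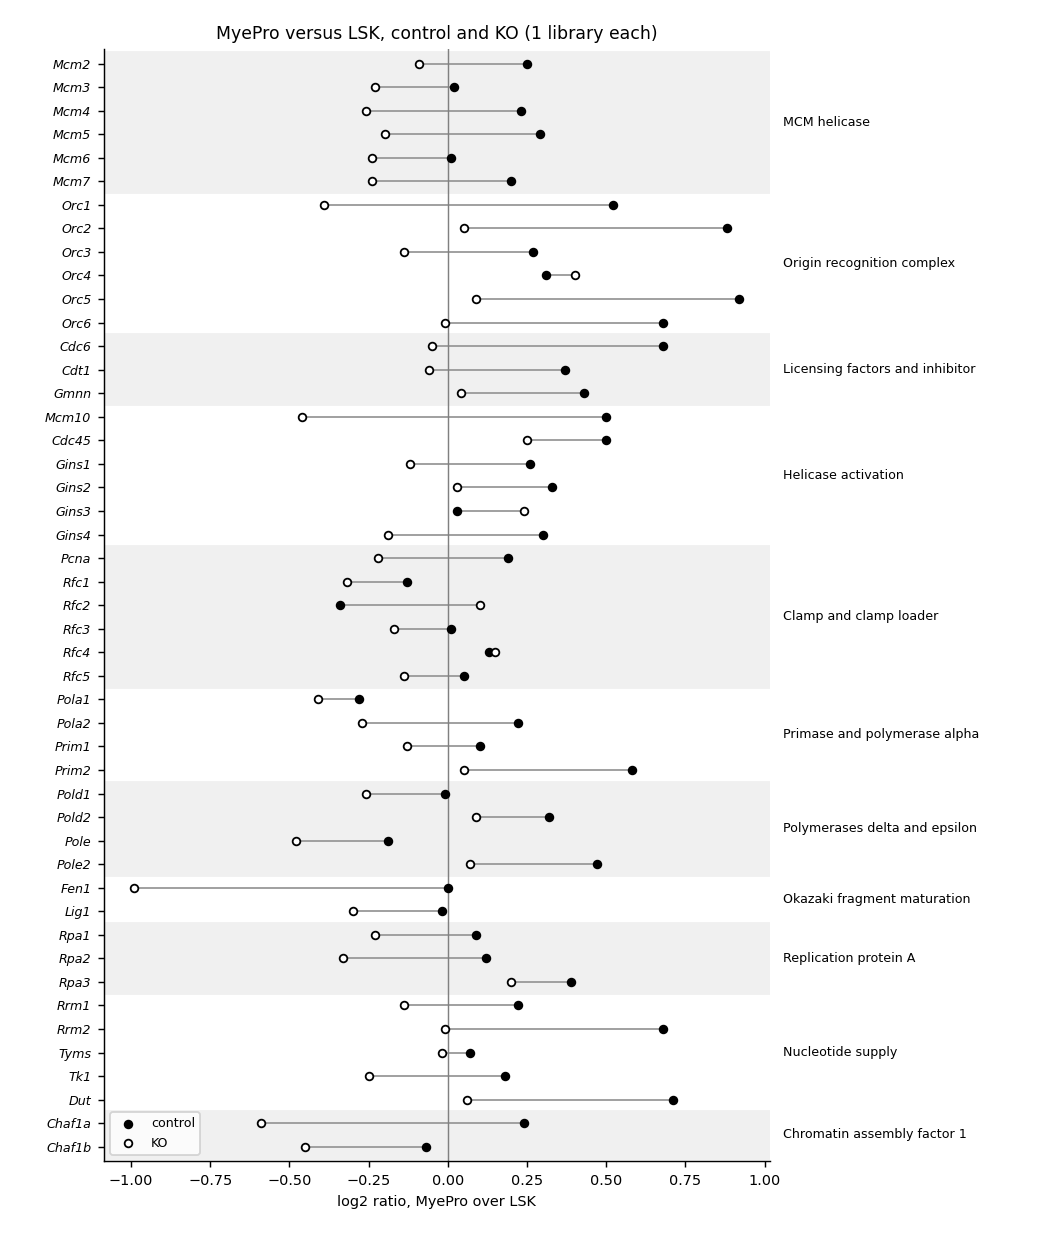
Log2 ratio of MyePro over LSK for each gene in control (filled) and KO (open) cells, 1 library each, joined by a line. The filled points lie mostly right of 0, up to Orc5 at 0.92, and most open points lie left of their filled partners, as for Chaf1a at 0.24 and -0.59.

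In LT-HSC no replication gene differed past the threshold. Of 46 tested, 0 were called at an adjusted p under 0.05, where 2 of 12844 genes (0.0156%) were, both lower in the libraries labelled KO (0.0156%) and none higher (0%). At an unadjusted p under 0.05, edgeR gave 2 members, both lower, where 2.29% of all genes passed, 1.01% higher and 1.28% lower, and DESeq2 gave 0 adjusted and 2 unadjusted. The median log2 fold change was -0.05 against 0.00 over all genes, and 28 of 46 (60.9%) were below 0, against 49.7%. Without the library labelled KO of transplant 1, whose TMM-scaled Dpy30 level went against its label, the median was -0.24. With all 4 libraries, 7 genes had their 2 control values above the 2 of the libraries labelled KO, where 13.9% of all genes did, and Gins2 and Gins4 had them below, where 13.8% did. Fen1 was not tested, being listed at 0.0216 and 0.0924 CPM in the controls and 0.0403 and 0.0147 CPM in the libraries labelled KO.

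**Figure D5:**
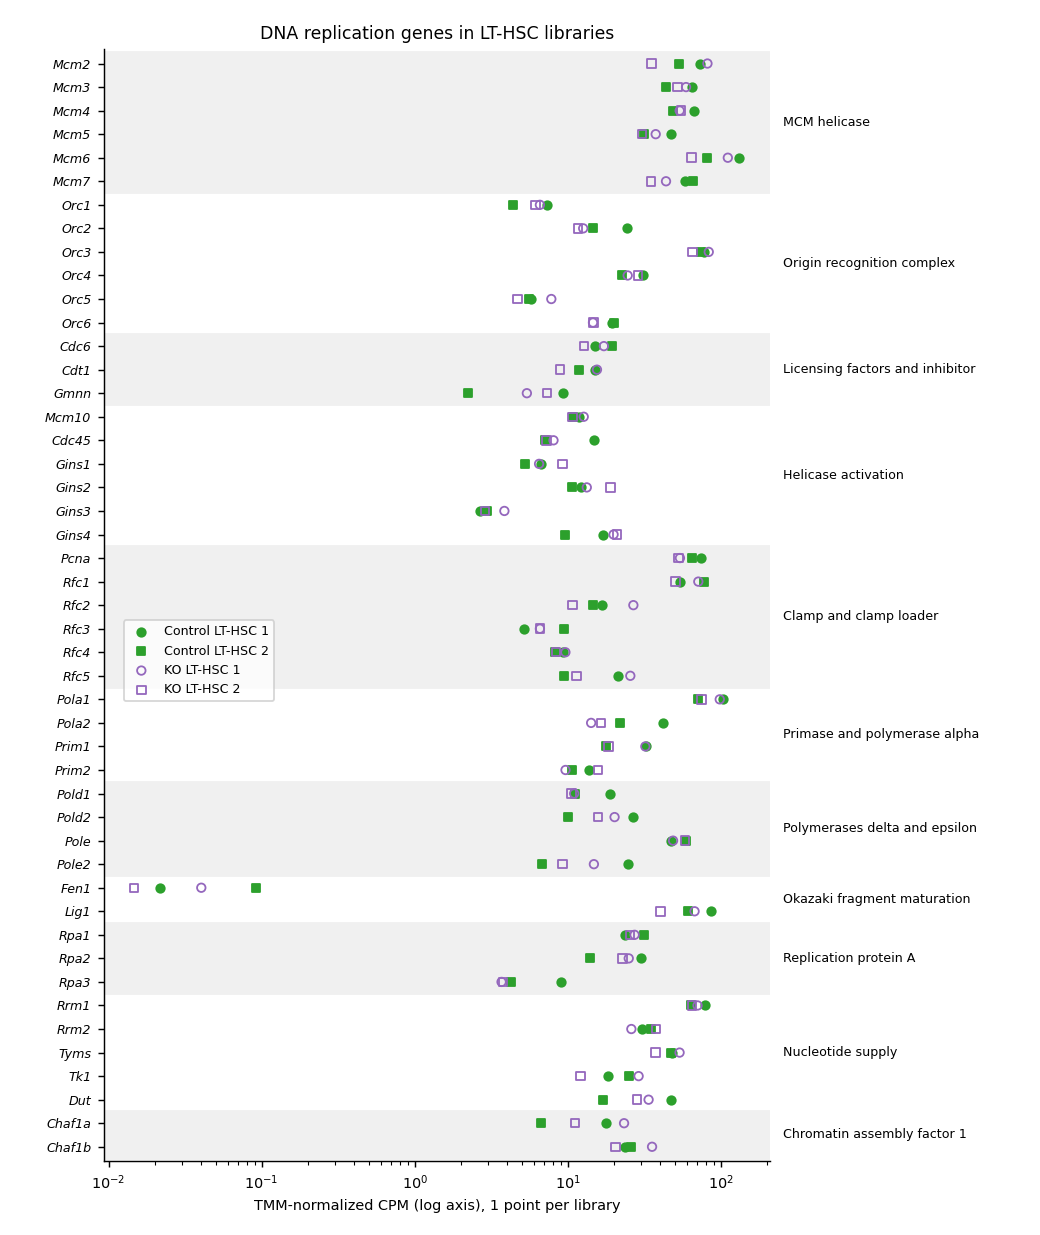
TMM-normalized CPM (log axis) of the 47 genes in the 4 LT-HSC libraries, filled symbols for control and open for the libraries labelled KO, circles for transplant 1 and squares for transplant 2. Symbols of the genotypes mix for most genes, and in Pola2 both libraries labelled KO (14.2 and 16.5 CPM) lie below both controls (41.7 and 21.9 CPM).

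Pola2, the B subunit of polymerase alpha, had 41.7 and 21.9 CPM in the controls against 14.2 and 16.5 CPM in the libraries labelled KO, a log2 fold change of -1.05 ± 0.387 (SE, edgeR unadjusted p = 0.0301, adjusted p = 0.999). Mcm7 had 58.1 and 65.3 CPM against 43.8 and 35 CPM, a change of -0.64 ± 0.267 (SE, edgeR unadjusted p = 0.0462, adjusted p = 0.999). The next smallest p-values belonged to Orc2 (24.2 and 14.5 CPM against 12.6 and 11.7 CPM, -0.67 ± 0.39 SE), Gins4 (17.1 and 9.57 CPM against 19.9 and 21 CPM, 0.62 ± 0.396 SE) and Pcna (74.1 and 64.7 CPM against 54 and 52.8 CPM, -0.38 ± 0.249 SE), all with an edgeR adjusted p of 0.999. Groups did not overlap for these 5 genes, which were picked by p, a choice that favours such gaps. Of all genes, 13.9% had both libraries labelled KO below both controls and 13.8% had both above. Of the 8 genes at least 2-fold lower in MyePro, Orc2 was the only one with both libraries labelled KO under the 2 controls. That count is to be read against the same 13.9%. Cdc6 had 15 and 19.5 CPM in the controls against 17.2 and 12.8 CPM, and Orc1 at 7.34 and 4.41 CPM against 6.57 and 6.16 CPM.

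Libraries of 1 group also differed in LT-HSC. Control 1 lay above control 2 for 35 of 46 genes, where 49.7% of all genes did, with a median log2 ratio of control 2 over control 1 of -0.40 against 0.01. Of the libraries labelled KO, the first lay above the second for 34 of 46, with a median of -0.23 against 0.00. For 9 of the 46 genes the controls differed by at least 2-fold, as for Pole2 (24.7 and 6.75 CPM). The share of all genes that did so was not counted. Within transplants the median ratio of the library labelled KO over control was -0.10 in transplant 1 and -0.03 in transplant 2, and 15 genes had the same sign in both, 10 of the 46 below 0, where 24.4% of all genes were, and 5 above, where 24.9% were. Marker sums moved with these libraries: myeloid progenitor markers summed to 72.4 and 317 CPM in the controls and 81.4 and 261 CPM in the libraries labelled KO, and neutrophil markers to 62.1, 315, 133 and 210 CPM in the same order. Stem cell markers summed to 838 and 464 CPM in the controls and 763 and 718 CPM in the libraries labelled KO. The part of these markers in the spread was not tested. Erythroid markers summed to 145 and 115 CPM in the controls and 59.9 and 59.4 CPM in the libraries labelled KO. None of the genes in the other pathway lists was called in LT-HSC.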

How the data were processed

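RNA was measured in 8 libraries, and the 6 ChIP samples were not analysed here. The deposited files hold raw, unnormalized counts of reads for each gene. Per the submitters' processing notes, TopHat2, Picard 1.126, HTSeq 0.6.0 and DESeq 3.0 were among the tools and mm10 was the build, with no role or order. The annotation used for counting and its strand setting were not given in the sources used here. Entries other than genes did not count toward library sizes (reads without a feature were 2.4% to 26% of a file), as was an unexplained entry named DPY30-SPKIG. In the labels, control and KO LT-HSC libraries with 1 number come from 1 transplant, which pairs them (deviation correlation 0.292).

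LT-HSC was fitted without block in edgeR 4.0.16 (R 4.3.3): quasi-likelihood test, TMM, a filter of 1 CPM in 2 or more of the 4 libraries, two-sided, Benjamini-Hochberg adjustment over all genes, threshold 0.05. Each library is a pool of mice, and the pools of a genotype come from different transplants. The p-values of this fit without block thus measure the spread between pools and transplants together. For LSK and MyePro, TMM factors were computed after the same filter, log2 ratios used a prior count of 2, only genes averaging 5 CPM or more over the pair were counted at 2-fold, and 95% intervals are exact conditional binomial. LT-HSC and the other libraries were normalized apart. Given in full were the genes past 2-fold or, where fewer than 5 passed, the 5 lowest and 5 highest, and in LT-HSC the 5 with the smallest p. Levels were not compared between genes, as exon lengths were not used here. The members and lists were chosen with earlier results of these data known. Alternatives changed the normalization, filter, prior count, depth, tool (DESeq2 1.42.0), block and libraries. 1 marker list is not reported here. The fits were tested on simulated data.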

Additional observations from a re-analysis of the deposited data

Results flagged for a closer look

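Some genes had log2 ratios on opposite sides of 0 in 2 groups, each with a counting interval clear of 0, and the difference itself was not tested. Only the replication genes were put to this rule, so no share over all genes stands beside the counts. The intervals leave out the choice of scaling. For KO over control this held for 4 genes: the log2 ratios in LSK and MyePro were 0.22 and -0.48 for Orc6, 0.25 and -0.24 for Gins4, 0.21 and -0.20 for Pcna, and -0.25 and 0.19 for Rfc2.

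For MyePro over LSK, the log2 ratios in control and KO cells were 0.25 and -0.09 for Mcm2, 0.23 and -0.26 for Mcm4, 0.29 and -0.20 for Mcm5, 0.20 and -0.24 for Mcm7, and 0.50 and -0.46 for Mcm10. They were 0.30 and -0.19 for Gins4, 0.19 and -0.22 for Pcna, 0.22 and -0.27 for Pola2, 0.09 and -0.23 for Rpa1 and 0.12 and -0.33 for Rpa2. For Rrm1 they were 0.22 and -0.14, for Tk1 0.18 and -0.25, and for Chaf1a 0.24 and -0.59. These 13 genes went one way in the control libraries and the other in the KO libraries, each of 1 library. How many of all genes did so was not counted.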

How the results depend on the processing

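The count of 0 members called in LT-HSC held in every setting run. With the transplant replicate block the median of members was -0.04 and 4 genes of all were called, against 2. The LT-HSC median was -0.45 with library totals, where all genes had -0.35, and left out one at a time it ran from -0.24 to 0.13: 0.13 without control 1, 0.08 without the library labelled KO 2, -0.21 without control 2 and -0.24 without that labelled KO 1. It thus changed sign with the library left out, and no direction can be read from it. Library totals gave -0.19 in LSK (all genes 0.09) and -0.27 for KO MyePro over KO LSK (all genes -0.13). They gave -0.50 for Rrm1 and 0.35 for Pcna in LSK. The 8 genes past 2-fold in MyePro numbered 7 to 9 over the settings. One setting, TMM factors from all gene entries, was chosen after the data were seen. LSK and MyePro have 1 library a group, so leaving one out was not possible there. Over all genes in LT-HSC, the calls ran from 0 (mitochondrially encoded genes left out) to 14 (DESeq2), with 1 under ERCC size factors and 4 with library totals or no filter, none of them members.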
